A study of Ovis aries with 26 samples.

Results

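The genes described here are 50 of the 30186 rows of a sheep oocyte and embryo expression table, chosen by their levels in 5 of the 8 stages sampled. Each had a mean of at least 10 FPKM (the count of fragments scaled by gene length and by library depth) in mature oocytes, in 2-cell embryos and in expanded blastocysts. In each, the lower of the morula and early blastocyst means was at least 3 times below each of those 3 stage means. The words lost and regained below name these conditions and carry no test. By the same rule 1417 genes were lost between the 2-cell embryo and the early blastocyst, and the 50 are the 3.53% of them that also met the condition on the expanded blastocyst. The other 1367 genes, lost and not regained, serve as the comparison. A further 1 gene that met the rule is not reported.

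An oocyte stores messenger RNA made during its growth, and the first cleavages run on that store while the embryo's own genome is still largely silent. The store is cleared as transcription from the embryonic genome takes over, which in sheep and cattle is centred on the 8-cell to 16-cell stages. The embryo then compacts into a morula, seals an outer epithelium with tight junctions, pumps fluid inwards to form a blastocyst and separates trophectoderm, the future placenta, from the inner cell mass.

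The study sampled mature oocytes, arrested in meiosis II (MII, with 2 libraries), and cultured embryos from fertilization in vitro by capacitated sperm. Cleaving embryos are called 2C (with 4 libraries), 4C (with 3), 8C (with 4) and 16C (with 3) by their number of cells. Morula and EarlyB, the early blastocyst, have 3 libraries each, and ExpB, the expanded blastocyst, has 4, which gives 26 in all. Polyadenylated RNA was copied from directly lysed material by Smart-seq2, a full-length method for very small amounts of RNA. No genotype, breed or treatment distinguishes the groups in the labels. The number of oocytes or embryos in a library is not given, nor whether replicates were separate animals or cultures, so p-values reflect no more than the spread among libraries, and that spread may be technical. All levels below are FPKM as deposited, stage means are given ± SD, and each SD rests on the 2 to 4 libraries just listed.

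Recovered depth lay between 16.0 and 35.6 (in units of 1e6 reads) per library, lowest in EarlyB at 16.0 to 19.9 and in ExpB at 19.3 to 25.4, against 25.9 to 35.6 in the 19 libraries of the earlier stages. Markers of the first and the last stage set those apart, and no marker checked the stages between: the egg coat gene ZP2 averaged 1347 FPKM in MII and 1.39 in ExpB, and the trophectoderm keratin KRT8 averaged 0.36 in MII and 4313 in ExpB. Across all genes, 4C replicates 1 and 2 correlated slightly better with the 2C libraries than with their own stage, and 16C replicate 1 correlated better with 8C. The numbers of members called at 4C and 16C are therefore also given without them. Other results use all libraries unless stated. FPKM is relative to what else is in a library, and in whole embryos fewer cells of a type and less RNA per cell cannot be told apart. A poly(A) method can also miss a message whose tail is short, and tail length was not measured.

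The summed level of the 50 genes stayed near its oocyte value up to 8C, was lower in 16C, lay at its lowest in Morula and EarlyB and stood between these and 2C in ExpB. Summed over the 50 genes, the level was 3565 ± 315 FPKM in MII, 3890 ± 31.8 in 2C, 3783 ± 156 in 4C and 3723 ± 159 in 8C. It was 2744 ± 512 in 16C, 916 ± 84.2 in Morula, 1058 ± 26.6 in EarlyB and 3067 ± 448 in ExpB. The Morula and EarlyB libraries, between 829 and 1085, lay apart from all others, the lowest of which was 16C replicate 3 at 2170. As a share of all FPKM in a library, the sum was 0.92% in 2C, 0.60% in 16C, 0.15% in Morula, 0.16% in EarlyB and 0.48% in ExpB, so that on this scale ExpB was nearer to Morula than to 2C. As a share of its own 2C mean, the median gene of the set stood at 96.1% in 4C, 95.5% in 8C, 61.0% in 16C, 18.3% in Morula, 29.2% in EarlyB and 77.0% in ExpB. For the 1367 genes not regained the same medians were 95.1%, 98.0%, 75.4%, 20.6%, 11.7% and 8.28%. The rule used 2C, Morula, EarlyB and ExpB, so these medians, all taken against 2C, only describe the groups it made. Single members differed from the median: in 8C they ran from 40.3% (LOC101116001) to 164% of their 2C mean, with MMAB at 41.1%, TRNAG-GCC_18 at 44.7%, IAH1 at 53.5%, ITGB1 at 57.9% and PLS1 at 59.1%.

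**Figure D1:**
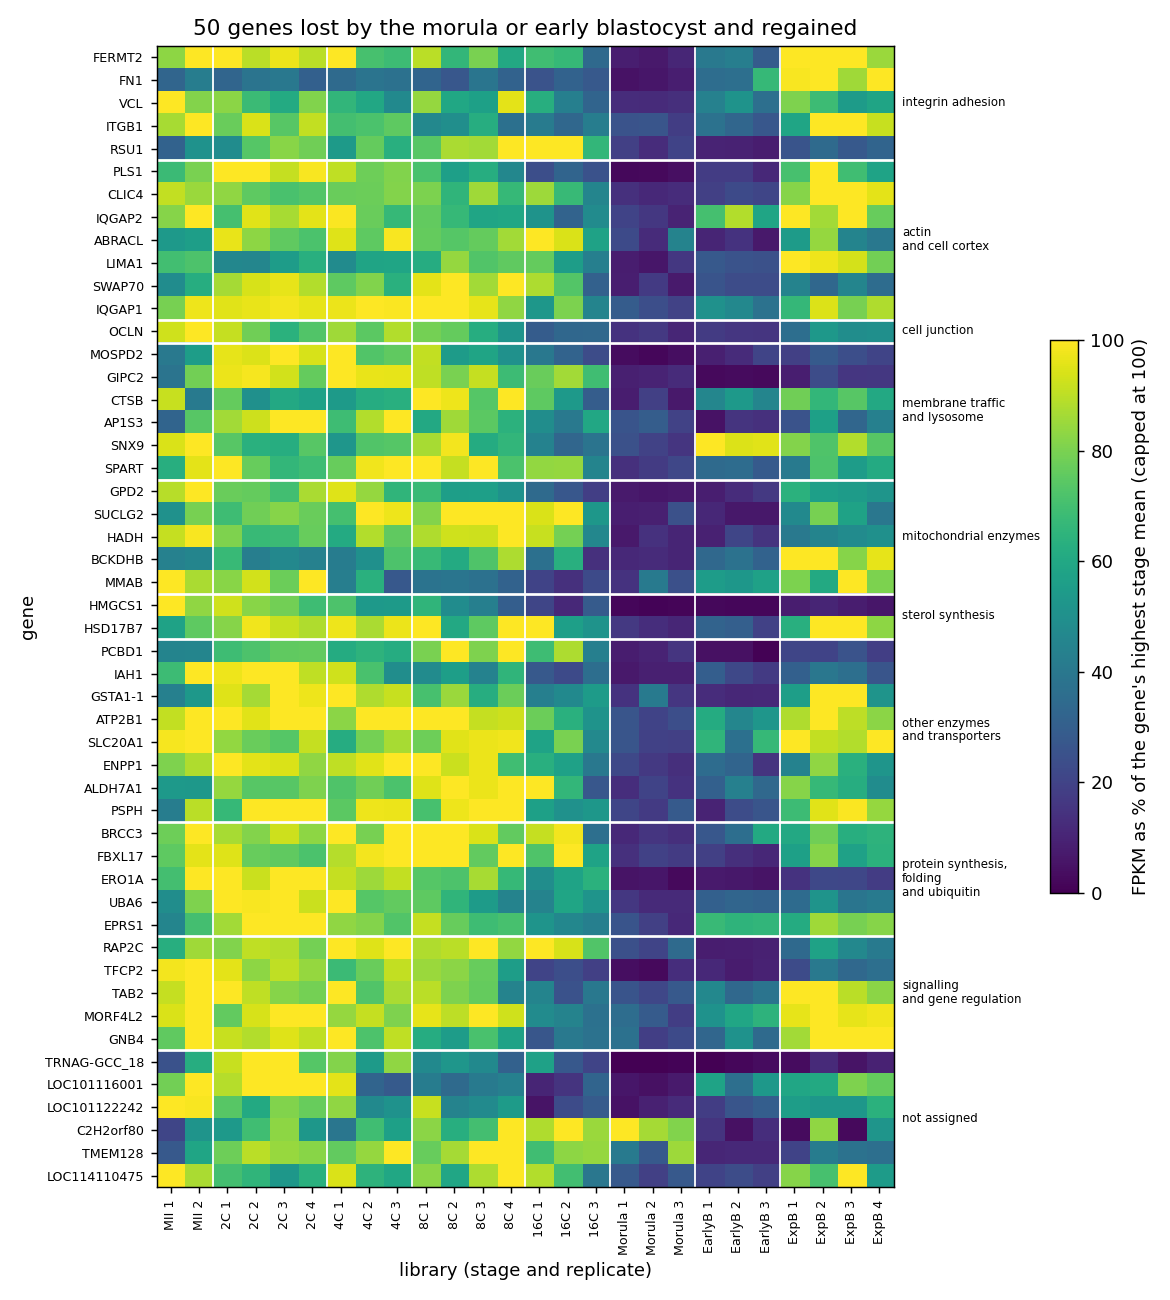
Level of the 50 genes (rows, grouped by role) in each of the 26 libraries (columns), as a percent of the gene's highest stage mean, capped at 100. The dark columns of Morula and EarlyB separate the bright oocyte and cleavage libraries from the ExpB libraries.

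The low point fell in the morula for most of the set. Of the 50 genes, 37 had the lower of the pair of means in Morula and 13 in EarlyB. Both means met the 3-fold condition in 9 genes, Morula alone in 30 and EarlyB alone in 11. In 44 genes every Morula library lay below every MII, 2C and ExpB library, which 3.35% of all 15766 tested genes also did, and in 41 genes the same held for EarlyB, against 2.77% of all. In 49 genes it held for at least 1 of these stages (5.00% of all) and in 36 for both (1.11% of all). The rule used these stages, so the counts describe the members and are no evidence for them. The one gene in neither count was C2H2orf80, described last.

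The order of Morula and EarlyB levels differed among the genes. The EarlyB mean was at least 2 times the Morula mean in 24 genes, while the Morula mean was at least 2 times the EarlyB mean in 8. Among the genes not regained, 83.0% had an EarlyB mean at or below their Morula mean, and among the 50 genes 26% did. The rule separated these groups by their ExpB level and used Morula and EarlyB too. It may itself favour such a difference, which is therefore a description only. In ExpB, 15 genes stood at or above their MII mean, 15 at or above their 2C mean and 9 at or above both, whereas 8 stood below 1/2 of the lower of these means. The stage with the highest mean was MII in 12 genes, 2C in 11, 4C in 6, 8C in 9, 16C in 3, EarlyB in 1 and ExpB in 8.

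**Figure D2:**
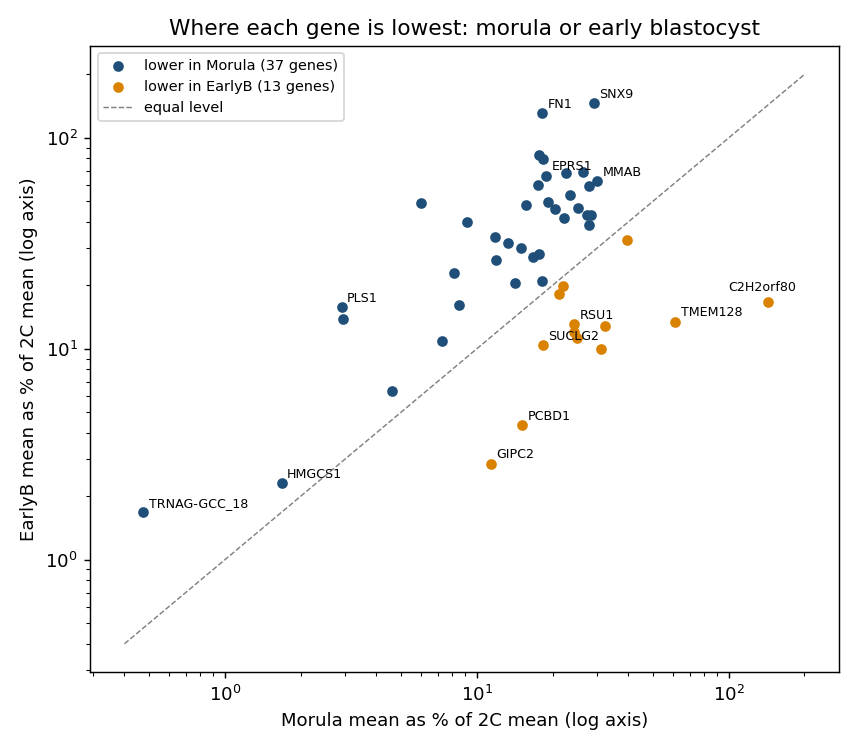
Morula mean against EarlyB mean of each of the 50 genes, both as a percent of the gene's 2C mean on log axes, with the line of equal level. The 37 genes above the line were lowest in Morula and the 13 below it in EarlyB; SNX9, FN1 and C2H2orf80 lie far from the line.

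The depth of the gap, measured as the lowest of the MII, 2C and ExpB means over the lower of the Morula and EarlyB means, had a median of 4.09 and ran from 3.03 to 25.4. The largest gaps were those of PLS1 at 25.4, the glycine tRNA gene row TRNAG-GCC_18 at 15.8, LOC101116001 at 11.5 and FERMT2 at 10.8. The gap of TRNAG-GCC_18 is uncertain in size, because its Morula mean of 0.72 FPKM is near 0 and its row is short. The 3 genes just inside the threshold were MMAB at 3.03, LOC114110475 at 3.04 and TMEM128 at 3.04, and the 3 just outside were GNPNAT1 at 2.95, HSD17B12 at 2.94 and CRYZ at 2.94. The values thus run on across the threshold, and the number of genes depends on the scale: with libraries rescaled to a common sum 102 genes met the rule, 48 of them among the 50. All 50 passed the filter for testing through the rule's own level minimum.

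Only 4C, 8C and 16C were left unused by the rule, and only differences among these 3 stages were tested. These stages lie between 2C, which the rule held high, and Morula and EarlyB, whose lower mean it held low. A fall somewhere in that interval was thus set by the rule, for the 50 genes and the genes not regained alike. It may favour lower levels in 16C, so the shares called beside all tested genes describe the members and are no evidence for them. The differences were fitted with limma on log2(FPKM + 1) over all 15766 genes. A call required a Benjamini-Hochberg adjusted p under 0.05 and a difference of 1 or more in size. Differences, here and in the paragraphs on single genes, are on that log2 scale. Between 4C and 8C none of the 50 genes was called in either direction, where 0.577% of all tested genes were called higher and 0.330% lower in 8C. At an unadjusted p under 0.05, 5 of the 50 lay below 0 and 2 above, and none was called in any of 36 alternative analyses. Their median difference was -0.09 on the log2(FPKM + 1) scale, beside 0.01 for the genes not regained and 0.02 for all tested genes.

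Between 8C and 16C the first members were called, and all of them were lower in 16C. They were PLS1, LOC101116001, LOC101122242, GPD2, TFCP2, BCKDHB, OCLN, HMGCS1 and MORF4L2, 9 of the 50 (18%), beside 6.66% of the genes not regained and 2.01% of all tested genes. No member was called higher (none at an unadjusted p under 0.05 either), against 5.54% of all. The difference was below 0 in 46 of the 50, with a median of -0.60, beside -0.40 for the genes not regained and -0.04 for all. Fitting only the 8C and 16C libraries left 4 of the calls (PLS1, TFCP2, OCLN and MORF4L2).

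Against 4C, 13 of the 50 genes (26%) were lower in 16C and none was higher, beside 10.3% of the genes not regained called lower. Of all tested genes 2.84% were lower and 5.35% higher, and 1 member lay above 0 at an unadjusted p under 0.05. The 13 were PLS1, GPD2, OCLN, TFCP2, GNB4, HMGCS1, MOSPD2, TAB2, IAH1, LOC101122242, MMAB, LOC101116001 and GSTA1-1, the last at an adjusted p of 0.047 (limma). The median difference was -0.65, beside -0.37 for the genes not regained and 0.00 for all. Every 16C library lay below every 4C library in 26 of the 50, which 11.5% of all tested genes also did. Both contrasts use the same 16C libraries and are not independent of each other. With only the 4C and 16C libraries fitted 3 calls were left (PLS1, TFCP2 and OCLN), and without 4C replicates 1 and 2 and 16C replicate 1 together 9 members were lower in 16C than in 4C and 13 lower than in 8C. Without the same libraries 65 of the genes not regained were lower in 16C than in 4C (141 with all libraries) and 145 lower than in 8C (91 with all).

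**Figure D3:**
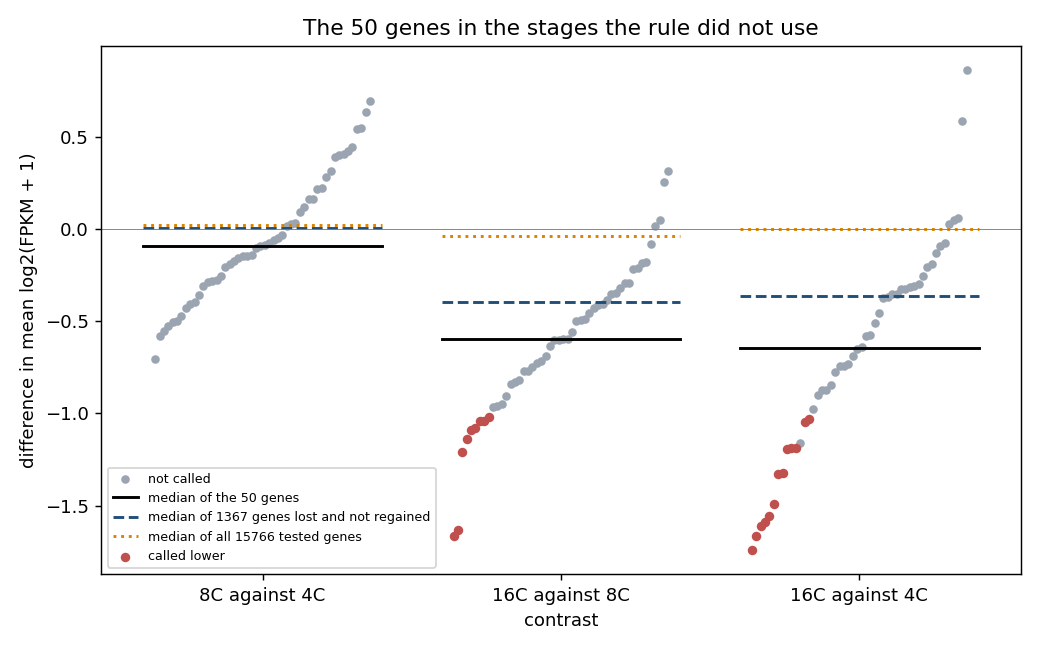
Difference in mean log2(FPKM + 1) of each of the 50 genes in the 3 tested contrasts, sorted within a contrast, with genes called lower in red and the medians of the 50 genes, of the 1367 genes not regained and of all 15766 tested genes as lines. No point is red in 8C against 4C, 9 are in 16C against 8C and 13 in 16C against 4C.

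The genes called lower at 16C were mostly those with their low point in Morula. Among the 37 genes lowest in Morula, 9 were lower in 16C than in 8C and 12 lower than in 4C, with median differences of -0.73 and -0.74. Among the 13 genes lowest in EarlyB none was lower than in 8C and 1 (GSTA1-1) was lower than in 4C, with medians of -0.32 and -0.19. The difference between these groups of genes was not tested. As a share of the 2C mean, 18 genes were at or below 1/2 in 16C (36%, beside 19.2% of the genes not regained), and 7 were at or above their 2C mean. The rule used 2C, so these shares are a description only. The 3 16C libraries differed among themselves: the median gene stood at 67.8% of its 2C mean in replicate 1, 60.8% in replicate 2 and 50.9% in replicate 3.

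Markers of other cell types also varied among these stages. The 18 listed cumulus and granulosa cell markers, genes of the somatic cells that surround the oocyte, summed to 37.3 to 45.0 FPKM in MII, 173 to 588 in 4C, 28.7 to 159 in 8C and 32.1 to 138 in 16C. Blood cell markers summed to 306 to 804 in 4C, 8.93 to 249 in 8C and 1.72 to 85.7 in 16C. Of the 16 listed blood genes present, only 1 averaged at least 1 FPKM in 4C and 7 were at 0 in every 4C library. That sum is therefore nearly all 1 gene. SRGN was the only gene of that list called between 4C and 16C. Both sums were therefore higher in the 4C libraries than in any 16C library, and their part in the differences between 16C and 4C was not tested. The cumulus list summed to 1092 to 1425 in ExpB. There 6 of its 18 genes averaged at least 1 FPKM, while others, such as FSHR (0.13) and CYP11A1 (0.04), were near 0. Which genes carried that sum is not given here, and its source was not tested.

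Integrin-based adhesion was represented by 5 genes of the set. The roles here and below were assigned to the 50 genes only, so the group sizes have no share over all genes beside them. Integrins are paired receptors that hold cells to extracellular matrix and connect it, through adaptor proteins, to the actin skeleton. ITGB1 encodes the beta subunit shared by most of them, FERMT2 a kindlin that binds the tails of beta integrins and activates them, VCL the linker vinculin, RSU1 a protein of the complex around integrin-linked kinase, and FN1 the matrix ligand fibronectin. None of the 5 was called between 4C, 8C and 16C. At an unadjusted p under 0.05, 2 of them lay below 0 and 1 above in 16C against 4C. In 8C against 4C 1 lay below 0 and 1 above, and in 16C against 8C 1 lay below and none above. The last was VCL at -0.64 (adjusted p = 0.044, limma), which missed a call on size alone. A rule for named genes gave 25 of the 50, and the other members described with values, VCL and RSU1 among them, were picked after their values were seen.

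FERMT2 stood at 65.1 and 80.6 FPKM in MII, 78.4, 70.1, 76.2 and 70.3 in 2C, 86.5, 55.4 and 53.7 in 4C, 70.3, 52.0, 62.7 and 47.4 in 8C and 54.3, 52.4 and 26.7 in 16C. It was at 6.48, 5.47 and 8.28 in Morula, 31.7, 33.5 and 23.0 in EarlyB and 79.2, 88.6, 79.2 and 66.5 in ExpB. Every Morula library was thus below 10, every EarlyB library was between Morula and ExpB, and the ExpB libraries overlapped those of MII and 2C. The 16C libraries were split, with replicate 3 near the EarlyB level and the other two near 8C.

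ITGB1 took a more gradual course, from 72.0 and 93.4 in MII, 64.0, 78.2, 61.2 and 75.3 in 2C and 57.9, 59.1 and 62.3 in 4C to 38.6, 40.7, 51.5 and 30.5 in 8C and 34.4, 27.7 and 35.1 in 16C. The Morula libraries held 21.2, 21.9 and 15.04, the EarlyB libraries 31.1, 27.4 and 22.4 and the ExpB libraries 48.6, 113, 82.9 and 75.7. Each 16C library lay below each 4C library, but the difference of -0.87 ± 0.24 (SE, limma, adjusted p = 0.015) was under the size required for a call. ExpB replicate 1 was the lowest of its stage and replicate 2 the highest, and ExpB overlapped MII and 2C.

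FN1 differed from the other adhesion genes in where it ended. Its levels were 12.9 and 16.99 in MII, 13.0, 15.4, 15.97 and 12.2 in 2C, 13.8, 15.4 and 14.9 in 4C, 12.9, 10.9, 15.5 and 12.6 in 8C and 10.3, 12.5 and 11.2 in 16C, a narrow range. They were 1.897, 2.38 and 3.42 in Morula, 14.3, 14.6 and 26.8 in EarlyB and 39.6, 42.5, 34.1 and 43.4 in ExpB. Every EarlyB library had reached the range of the oocyte or passed it, and every ExpB library was above every MII and 2C library. Such a separation of ExpB was common over all genes, at 6412 of 15766 tested. It held for only 3 of the 50 genes, FN1, LIMA1 and BCKDHB. Among the 50 genes FN1 had the largest ExpB mean relative to 2C, at 282%.

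VCL averaged 17.002 ± 4.47 in MII, 12.5 ± 1.77 in 2C and 12.6 ± 3.23 in 8C. It averaged 7.83 ± 2.62 in 16C, 2.18 ± 0.10 in Morula, 7.45 ± 1.27 in EarlyB and 11.2 ± 1.99 in ExpB. RSU1 ran the other way at 16C, where its mean of 72.6 ± 21.4 was the highest of all stages, and it was lowest in EarlyB at 6.73 ± 0.73, below 12.5 ± 2.87 in Morula and 21.9 ± 2.75 in ExpB. The low point of the adhesion genes was therefore not shared: 4 of the 5 had it in Morula and RSU1 in EarlyB.

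Partners of these proteins, picked after the values were seen and given as levels only, included some with and some without RNA in the oocyte. The kinase gene ILK averaged 0.25 ± 0.0088 in MII and 3.18 ± 1.19 in ExpB, its adaptor LIMS1 0.047 ± 0.024 and 14.03 ± 2.77, and talin TLN1 0.25 ± 0.13 and 2.05 ± 0.76. Above 3 FPKM in MII were ITGA6, the laminin chain gene LAMC1 (26.4 ± 3.08), PXN (10.1 ± 0.51), PTK2 (5.13 ± 1.82), TLN2 (4.16 ± 0.11) and PARVA (3.54 ± 0.95). ITGA6, an alpha subunit for laminin receptors, averaged 39.6 ± 2.14 in MII and 44.5 ± 1.59 in 2C, and it was at 4.10 ± 0.87 in Morula and only 9.58 ± 1.75 in ExpB. ITGA5, the alpha subunit of the classical fibronectin receptor, was at 0.0037 ± 0.0052 in MII, 16.2 ± 4.44 in EarlyB and 12.5 ± 1.95 in ExpB. Per length, ITGA6 had the highest MII level of the alpha subunits listed, and ITGA5 and ITGA6 had the highest ExpB levels.

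The actin and cell cortex genes held the deepest gap of the set. PLS1 encodes a plastin that bundles actin filaments, known from the microvilli of absorptive epithelia. Its levels were 87.1 and 102 in MII, 136, 132, 117 and 127 in 2C, 116, 99.5 and 104 in 4C, 91.2, 72.1, 79.7 and 59.3 in 8C and 30.9, 41.1 and 32.3 in 16C. They were 2.50, 3.32 and 5.34 in Morula, 22.9, 22.9 and 14.6 in EarlyB and 90.6, 134, 88.8 and 74.4 in ExpB. The 4C, 8C and 16C ranges did not overlap, each lying below the one before, and every Morula library was below every EarlyB library. PLS1 fell by 1.09 ± 0.21 from 8C to 16C (SE, limma, adjusted p = 0.0011) and fell by 1.59 ± 0.23 from 4C to 16C (adjusted p = 3.3e-05). Without 8C replicate 1 the first of these was -0.9965, just short of the size for a call. ExpB replicate 2 was highest at 134, and ExpB overlapped MII and 2C.

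The related plastin gene PLS3, picked after its values were seen, followed another course. It averaged 1.01 ± 0.43 in MII, 3.32 ± 1.48 in 2C, 20.4 ± 23.1 in 16C, 17.9 ± 10.2 in Morula, 14.1 ± 2.50 in EarlyB and 5.71 ± 0.57 in ExpB. In Morula the mean level of PLS3 was above that of PLS1 (3.72 ± 1.46), and in ExpB the order was reversed. The SD at 16C exceeded the PLS3 mean there, so that stage gives no reliable level for it.

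CLIC4, a member of the chloride intracellular channel family found at the cell cortex, had the highest 2C and ExpB means of the set. It held 456 and 427 FPKM in MII, 419, 379, 358 and 368 in 2C, 388, 389.5 and 410.1 in 4C, 403, 329, 432 and 337 in 8C and 430.1, 339 and 228 in 16C. Morula libraries held 69.4, 57.1 and 64.0, EarlyB libraries 94.6, 112 and 105 and ExpB libraries 412, 587, 530.5 and 482. No 16C library came near the Morula range, and no call was made among 4C, 8C and 16C. The family member CLIC1, picked after its values were seen, averaged 13.3 ± 0.25 in MII, 17.4 ± 14.2 in 16C, 193 ± 15.04 in Morula, 502 ± 79.1 in EarlyB and 835 ± 240.1 in ExpB, so its level was above that of CLIC4 from the morula on.

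The scaffold proteins IQGAP1 and IQGAP2 bind the GTPases that organize cortical actin. IQGAP1 averaged 54.4 ± 7.71 in MII, 59.1 ± 5.69 in 8C, 36.6 ± 11.4 in 16C, 14.97 ± 2.90 in Morula, 27.6 ± 4.09 in EarlyB and 50.5 ± 7.49 in ExpB. IQGAP2 averaged 30.6 ± 7.82 in MII, 13.4 ± 3.21 in 16C and 4.74 ± 1.58 in Morula, and at 22.2 ± 4.59 in EarlyB and 28.3 ± 4.12 in ExpB it was back near its oocyte level earlier. LIMA1, which stabilizes actin filaments, had Morula libraries at 2.81, 2.14 and 5.63 and ExpB libraries at 45.5, 34.2, 32.8 and 27.6, all of the latter above its MII and 2C libraries. SWAP70, an actin-binding Rac activator, and ABRACL, a small actin regulator, averaged 43.4 ± 19.9 and 101 ± 46.0 in 16C. Their lower points were 7.36 ± 3.54 in Morula and 10.6 ± 3.99 in EarlyB. Of the 7 genes in this group only PLS1 was called at 16C. Against 4C, IQGAP1 (-0.77, adjusted p = 0.0074, limma) and IQGAP2 (-0.85, adjusted p = 0.014) missed a call in 16C on size alone.

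**Figure D4:**
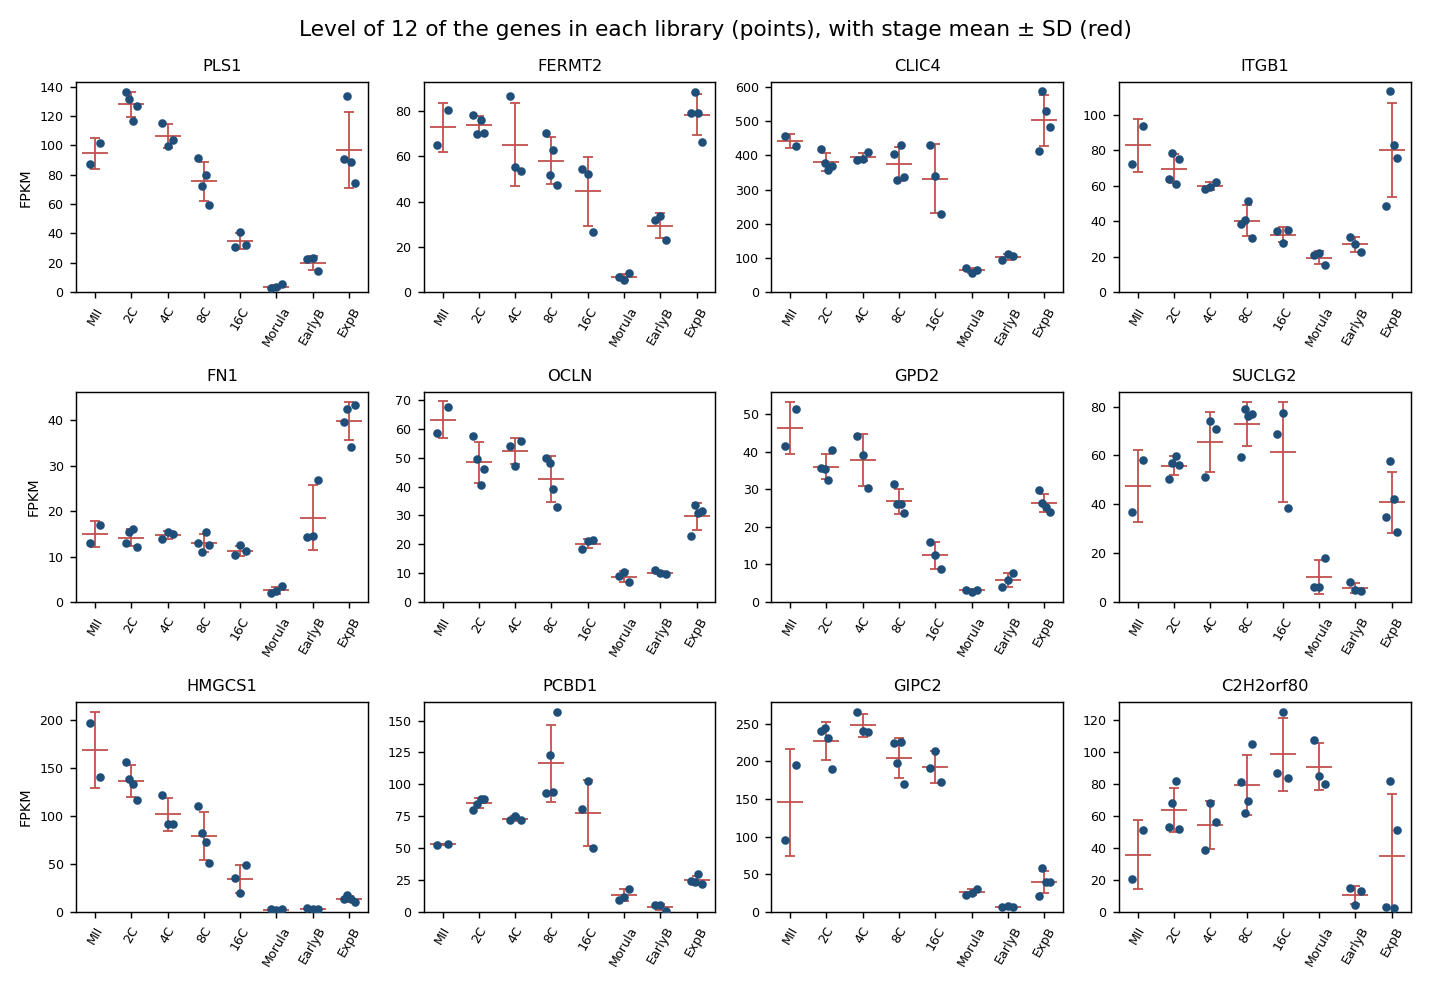
FPKM of 12 of the genes in each library (points) by stage, with the stage mean ± SD in red; each panel has its own axis from 0. PLS1, OCLN, GPD2 and HMGCS1 are down in 16C, whereas GIPC2, CLIC4, SUCLG2 and C2H2orf80 still have high 16C libraries.

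OCLN encodes occludin, a membrane protein of tight junctions, and was the only gene of the trophectoderm list in the set. Its levels were 58.7 and 67.7 in MII, 57.6, 49.5, 40.4 and 46.2 in 2C, 54.3, 47.3 and 55.9 in 4C, 49.9, 48.3, 39.3 and 32.8 in 8C and 18.3, 21.1 and 21.4 in 16C. They were 9.15, 10.4 and 6.80 in Morula, 10.9, 10.02 and 9.66 in EarlyB and 22.9, 33.6, 30.9 and 31.4 in ExpB. All 16C libraries lay below all earlier ones, and the ExpB libraries lay above all Morula and EarlyB libraries but below all MII and 2C libraries. OCLN fell by 1.33 ± 0.19 from 4C to 16C (SE, limma, adjusted p = 2.7e-05) and fell by 1.02 ± 0.18 from 8C to 16C (adjusted p = 0.00029). The second call was lost on size, at -0.94 to -0.95, without 8C replicate 1 or 2, without the 16C library numbered 1 or with median-ratio scaling.

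Membrane traffic and lysosome genes numbered 6, and they reached their low points at both stages. GIPC2, a PDZ-domain adaptor of receptor traffic, held 95.3 and 195 in MII, 241, 245, 232 and 189.7 in 2C, 266, 239.8 and 239 in 4C, 224, 198, 226 and 170.2 in 8C and 192, 214 and 172 in 16C. It was at 22.0, 25.2 and 30.3 in Morula, 6.11, 7.28 and 6.02 in EarlyB and 21.1, 57.8, 39.0 and 39.8 in ExpB. The Morula libraries were far below the 16C libraries, the EarlyB libraries were below those of Morula, and the ExpB libraries were all below the oocyte and cleavage libraries.

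SNX9, a sorting nexin of endocytosis, was already back in EarlyB. Its Morula libraries were at 10.05, 7.93 and 6.13, and its EarlyB libraries at 44.2, 38.2 and 38.4 already lay within or above the ranges of MII (38.0 and 42.0) and 2C (29.8, 25.6, 25.1 and 29.8). ExpB held 32.8, 29.1, 35.6 and 29.8. It was the one gene of the set with its highest stage mean in EarlyB. SNX9 was not called, but its difference of -0.96 ± 0.18 in 16C against 8C (SE, limma, adjusted p = 0.00072) fell short on size alone.

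MOSPD2, a tether of the endoplasmic reticulum to other membranes, held 19.9 and 27.3 in MII, 47.5, 46.6, 56.4 and 46.3 in 2C, 65.4, 35.9 and 37.2 in 4C, 44.6, 27.1, 28.8 and 24.98 in 8C and 19.6, 15.6 and 11.4 in 16C. It was at 1.67, 0.85 and 1.84 in Morula, 4.27, 6.14 and 10.04 in EarlyB and 9.36, 13.8, 11.9 and 10.1 in ExpB. It fell by 1.49 ± 0.28 from 4C to 16C (SE, limma, adjusted p = 0.00074). All 16C libraries were below all 4C libraries, and ExpB was below every MII and 2C library.

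CTSB, the lysosomal protease cathepsin B, averaged 22.5 ± 12.1 in MII, 33.8 ± 6.59 in 8C, 17.9 ± 7.72 in 16C, 3.78 ± 2.26 in Morula, 16.4 ± 1.66 in EarlyB and 23.6 ± 2.72 in ExpB. Its 16C libraries were spread at 25.4, 18.2 and 10.001, and it was not called. In 16C against 8C its difference of -0.95 ± 0.29 (SE, limma, adjusted p = 0.026) fell short on size alone. AP1S3, a subunit of a clathrin adaptor, averaged 27.5 ± 3.49 in 2C, 6.87 ± 1.37 in Morula, 3.11 ± 1.54 in EarlyB and 10.9 ± 3.71 in ExpB. SPART, a protein of endosomes and lipid droplets, averaged 51.5 ± 10.7 in 2C, 46.6 ± 14.7 in 16C, 11.4 ± 2.40 in Morula and 37.6 ± 8.51 in ExpB.

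Mitochondrial enzymes formed a group of 5. GPD2, the mitochondrial glycerol-3-phosphate dehydrogenase that passes electrons from cytosolic NADH to the respiratory chain, held 41.4 and 51.3 in MII, 35.8, 35.3, 32.4 and 40.5 in 2C, 44.2, 39.0 and 30.3 in 4C, 31.4, 26.01, 26.2 and 23.6 in 8C and 15.9, 12.6 and 8.68 in 16C. It was at 3.28, 2.72 and 3.18 in Morula, 3.89, 5.84 and 7.68 in EarlyB and 29.7, 26.2, 25.3 and 24.1 in ExpB. The 16C libraries lay below all earlier and above all later pre-expansion libraries, and every ExpB library was below every MII and 2C library. GPD2 fell by 1.55 ± 0.21 from 4C to 16C (SE, limma, adjusted p = 1.4e-05) and fell by 1.08 ± 0.20 from 8C to 16C (adjusted p = 0.00048). The latter was -0.86, short of the size for a call, without 16C replicate 3. GPD1L, a cytosolic enzyme of the same reaction picked after its values were seen, averaged 3.50 ± 2.12 in MII, 33.9 ± 44.7 in 16C, where the SD exceeded the mean, 153 ± 31.7 in Morula, 53.8 ± 8.81 in EarlyB and 142 ± 36.2 in ExpB.

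SUCLG2, the GTP-forming beta subunit of succinyl-CoA ligase in the citric acid cycle, held 36.9 and 58.0 in MII, 50.2, 56.9, 59.6 and 56.2 in 2C, 51.2, 74.2 and 70.9 in 4C, 59.2, 79.0, 76.2 and 76.9 in 8C and 68.8, 77.3 and 38.4 in 16C. It was at 6.18, 6.33 and 18.1 in Morula, 8.04, 4.77 and 4.57 in EarlyB and 34.6, 57.8, 42.0 and 28.8 in ExpB. The Morula and EarlyB libraries lay below all others, with Morula replicate 3 the highest of the 6. Its 2 partner subunits, picked after their values were seen, followed other courses. The shared alpha subunit SUCLG1 averaged 8.45 ± 1.87 in MII, 26.4 ± 7.94 in 8C, 88.8 ± 14.5 in Morula, 164 ± 7.62 in EarlyB and 194 ± 19.6 in ExpB. The ATP-forming beta subunit SUCLA2 averaged 46.2 ± 3.45 in 2C, 17.9 ± 1.06 in Morula, 15.3 ± 2.88 in EarlyB and 39.3 ± 10.5 in ExpB, so that in EarlyB the alpha subunit's level was far above that of either beta subunit.

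HADH, an enzyme of fatty acid beta-oxidation, averaged 62.3 ± 3.61 in MII, 47.4 ± 15.3 in 16C, 6.79 ± 2.44 in Morula, 9.81 ± 3.84 in EarlyB and 30.1 ± 2.81 in ExpB. BCKDHB, a subunit of the complex that degrades branched-chain amino acids, had ExpB libraries at 27.6, 27.1, 20.1 and 23.7, all above its MII (10.8 and 11.2) and 2C (16.6, 10.5, 11.5 and 10.8) libraries, and Morula libraries at 2.87, 2.997 and 2.53. It fell by 1.04 ± 0.28 from 8C to 16C (SE, limma, adjusted p = 0.013). That call rested on 16C replicate 3, at 3.40 against 9.07 and 15.5: without it the difference was -0.53 (adjusted p = 0.14), and without 8C replicate 4 it was -0.95. With median-ratio scaling the difference was -0.96, short of the size for a call.

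MMAB, which makes the coenzyme form of vitamin B12 for methylmalonyl-CoA mutase, was the only gene of the set whose lowest stage mean was in neither Morula nor EarlyB. It held 28.9 and 22.4 in MII, 21.1, 23.9, 19.9 and 25.9 in 2C, 10.97, 16.3 and 7.09 in 4C, 9.77, 9.94, 9.54 and 8.10 in 8C and 5.17, 3.56 and 5.79 in 16C. It was at 3.79, 10.4 and 6.26 in Morula, 14.2, 13.6 and 14.7 in EarlyB and 20.6, 15.6, 25.8 and 20.6 in ExpB. MMAB fell by 1.05 ± 0.27 from 4C to 16C (SE, limma, adjusted p = 0.0098), a call lost without 4C replicate 2 (-0.77, adjusted p = 0.078) or 16C replicate 2 (-0.88, adjusted p = 0.052), or without 4C replicates 1 and 2 and 16C replicate 1 together (-0.54, adjusted p = 0.48). The mutase gene MMUT, picked after its values were seen, averaged 36.5 ± 7.08 in 8C, 14.9 ± 0.55 in 16C, 9.50 ± 2.37 in Morula and 24.5 ± 4.998 in ExpB.

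**Figure D5:**
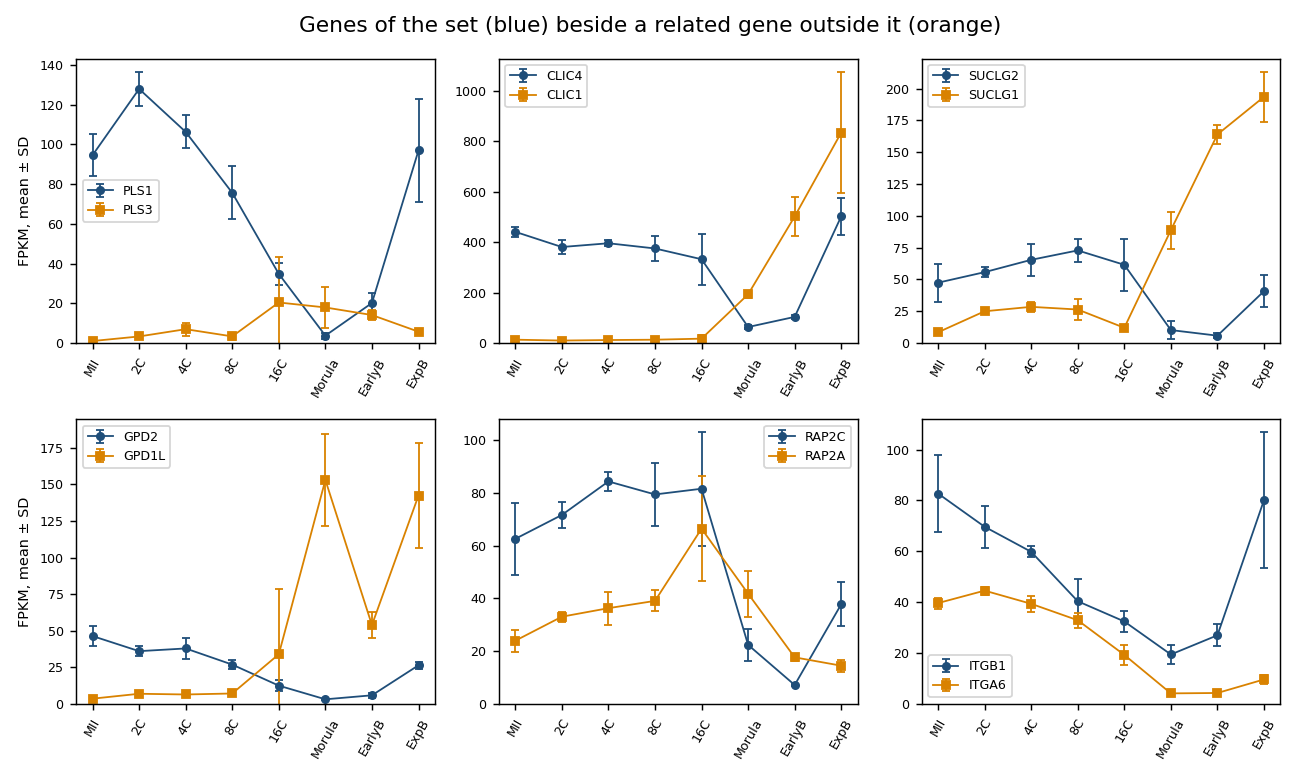
Stage means ± SD in FPKM of 6 genes of the set (blue) beside a related gene outside it (orange), picked after the values were seen; lines join stages only to guide the eye. CLIC1 and SUCLG1 are above their counterparts from Morula on, GPD1L likewise (its 16C mean has an SD larger than itself), PLS3 in Morula only, RAP2A in Morula and EarlyB, and ITGA6 at no stage.

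Sterol synthesis was represented by HMGCS1, which makes the precursor HMG-CoA, and HSD17B7, an enzyme of later cholesterol synthesis. HMGCS1 held 196 and 141 in MII, 156, 138, 133 and 116 in 2C, 121, 91.2 and 91.7 in 4C, 110.4, 82.1, 72.4 and 50.6 in 8C and 35.4, 19.6 and 48.2 in 16C. It was at 2.80, 1.43 and 2.62 in Morula, 3.62, 3.07 and 2.70 in EarlyB and 13.6, 17.6, 13.7 and 10.1 in ExpB. The ExpB libraries were above all Morula and EarlyB libraries but at 10.1% of the 2C mean. HMGCS1 fell by 1.61 ± 0.29 from 4C to 16C (SE, limma, adjusted p = 0.00041) and fell by 1.21 ± 0.27 from 8C to 16C (adjusted p = 0.0031). Without 16C replicate 2 the latter was -0.86, short of the size for a call. HSD17B7 averaged 19.1 ± 1.39 in 2C, 16.4 ± 8.55 in 16C, 2.87 ± 0.61 in Morula, 5.76 ± 1.48 in EarlyB and 21.2 ± 7.22 in ExpB.

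Other enzymes and transporters made up 8 genes. GSTA1-1, an alpha-class glutathione transferase, held 107 and 132 in MII, 234, 213, 282 and 241 in 2C, 298, 217 and 226 in 4C, 175, 209.5, 154 and 191 in 8C and 107, 117 and 136 in 16C. It was at 36.5, 101 and 39.0 in Morula, 31.6, 27.9 and 28.4 in EarlyB and 139, 316, 380.1 and 128 in ExpB. Morula replicate 2 was apart from the other two, and ExpB replicates 2 and 3 were more than 2 times replicates 1 and 4. Its difference between 16C and 4C was -1.03 ± 0.35 (SE, limma, adjusted p = 0.047), a call lost in 22 of 36 alternatives. Without 4C replicates 1 and 2 and 16C replicate 1 together the difference was -0.84 (adjusted p = 0.45), and in the others of these the adjusted p was between 0.053 and 0.17. The near-identical gene GSTA1 averaged 21.7 ± 12.02 in 4C and 1.84 ± 1.18 in ExpB, and reads of such copies may be divided between them by counting, so the values of GSTA1-1 are uncertain.

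PCBD1, which recycles the cofactor tetrahydrobiopterin, held 92.9, 123, 93.8 and 157 in 8C, 80.4, 102 and 50.2 in 16C, 9.29, 11.5 and 18.05 in Morula, 5.34, 5.13 and 0.65 in EarlyB and 24.2, 23.6, 29.6 and 21.6 in ExpB. Its MII libraries were at 52.8 and 53.2 and its 2C libraries at 80.2, 84.2, 88.3 and 88.5, all above every ExpB library. PSPH, the last enzyme of serine synthesis, averaged 162 ± 36.9 in 2C, 86.4 ± 5.14 in 16C, 35.6 ± 9.38 in Morula, 32.1 ± 13.97 in EarlyB and 140.4 ± 22.3 in ExpB. The enzymes before it in that pathway, PHGDH and PSAT1, picked after their values were seen, averaged 0.42 ± 0.058 and 7.05 ± 1.09 in MII and 42.4 ± 5.98 and 107 ± 27.5 in ExpB.

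The phosphate transporter SLC20A1 averaged 77.8 ± 1.57 in MII, 47.9 ± 12.9 in 16C, 16.8 ± 3.22 in Morula, 43.9 ± 13.1 in EarlyB and 76.5 ± 8.28 in ExpB. ALDH7A1, an aldehyde dehydrogenase of lysine breakdown, averaged 34.2 ± 1.63 in 8C, 22.3 ± 12.8 in 16C, 5.47 ± 1.27 in Morula and 22.2 ± 4.69 in ExpB, and its 16C libraries ranged widely, at 34.9, 22.6 and 9.35. IAH1, an esterase, fell by 1.19 ± 0.23 from 4C (30.4, 23.2 and 16.1) to 16C (9.13, 7.40 and 11.8) (SE, limma, adjusted p = 0.0011), and the difference was -0.98 without 4C replicate 1, short of the size for a call, and -0.72 (adjusted p = 0.23) without 4C replicates 1 and 2 and 16C replicate 1 together. Its Morula libraries held 2.27, 2.84 and 2.87 and its ExpB libraries 10.1, 13.0, 11.9 and 8.58. ATP2B1, a plasma membrane calcium pump, averaged 29.5 ± 0.99 in 2C, 18.9 ± 3.87 in 16C, 6.91 ± 0.94 in Morula and 26.9 ± 2.74 in ExpB. ENPP1, which makes pyrophosphate outside cells, averaged 22.9 ± 3.14, 12.5 ± 2.79, 4.04 ± 0.95 and 14.3 ± 3.99 at the same stages. In 16C against 8C, SLC20A1, ALDH7A1, IAH1, ATP2B1 and ENPP1 were lower at an adjusted p under 0.05 (limma) and missed a call on size alone. Against 4C the same held for ATP2B1 and ENPP1.

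Of 5 genes of protein synthesis, folding and ubiquitin, none was called, and 3 lay below 0 at an unadjusted p under 0.05 in 16C against 4C. These 3 also had an adjusted p under 0.05 (limma) and missed a call on size alone. EPRS1 was at -0.74 (adjusted p = 0.022, limma), UBA6 at -0.69 (adjusted p = 0.027) and ERO1A at -0.64 (adjusted p = 0.046). EPRS1, the synthetase that charges glutamate and proline tRNAs, averaged 85.0 ± 9.08 in 2C, 40.02 ± 3.65 in 16C, 16.05 ± 6.17 in Morula, 56.2 ± 1.16 in EarlyB and 65.6 ± 9.22 in ExpB. Its EarlyB libraries already overlapped the MII range. ERO1A, which oxidizes proteins in the endoplasmic reticulum, averaged 74.4 ± 4.24 in 2C, 42.4 ± 5.46 in 16C, 3.44 ± 1.42 in Morula, 4.72 ± 0.67 in EarlyB and 14.1 ± 2.52 in ExpB. The related ERO1B, picked after its values were seen, averaged 0.73 ± 0.31 in MII and 18.7 ± 2.39 in ExpB. In ExpB the levels of ERO1A and ERO1B were close to each other. The ubiquitin-activating enzyme UBA6 averaged 32.9 ± 2.21 in 2C, 4.38 ± 0.82 in Morula and 13.7 ± 2.38 in ExpB. The ubiquitin ligase subunit FBXL17 averaged 14.1 ± 1.84 in 2C, 2.55 ± 0.71 in EarlyB and 11.5 ± 2.07 in ExpB. The deubiquitinase BRCC3 averaged 25.2 ± 1.42 in 2C, 3.96 ± 0.59 in Morula and 19.5 ± 2.36 in ExpB.

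Among 5 genes of signalling and gene regulation, 2 were lower in 16C than in 8C and 3 lower than in 4C. Of all 50 genes 18% and 26% were lower in these contrasts, and of all tested genes 2.01% and 2.84%. TFCP2, a transcription factor of the grainyhead-related CP2 family, held 30.2 and 31.4 in MII, 29.5, 25.5, 27.9 and 25.8 in 2C, 21.0, 23.7 and 27.9 in 4C, 26.1, 25.4, 23.6 and 17.1 in 8C and 6.32, 7.35 and 5.87 in 16C. It was at 1.12, 0.77 and 4.08 in Morula, 3.55, 2.35 and 3.003 in EarlyB and 7.04, 12.5, 10.4 and 11.3 in ExpB. The 16C libraries lay well below every earlier library, and every ExpB library was below every MII and 2C library. TFCP2 fell by 1.66 ± 0.26 from 8C to 16C (SE, limma, adjusted p = 7.3e-05) and fell by 1.74 ± 0.27 from 4C to 16C (adjusted p = 0.0001), and both calls held in all 36 alternatives run.

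MORF4L2, a chromatin protein of histone acetyltransferase complexes, held 244 and 259 in MII, 196, 243, 272 and 307 in 2C, 217, 236 and 209 in 4C, 249, 233, 267 and 240.0 in 8C and 125, 116 and 96.5 in 16C. It was at 92.0, 74.1 and 46.7 in Morula, 131, 153 and 168 in EarlyB and 249, 283, 249 and 253 in ExpB. It fell by 1.14 ± 0.18 from 8C to 16C (SE, limma, adjusted p = 0.00012). Against 4C its difference of -0.97 in 16C (adjusted p = 0.0014, limma) missed a call on size alone. All Morula and 16C libraries lay below all 2C libraries, and EarlyB lay between. Its close relative MORF4L1, picked after its values were seen, was highest in Morula at 200.4 ± 36.2, beside 127 ± 23.3 in MII and 126 ± 9.80 in ExpB.

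GNB4, a beta subunit of heterotrimeric G proteins, fell by 1.32 ± 0.23 from 4C (35.6, 21.8 and 27.4) to 16C (8.16, 12.3 and 11.4) (SE, limma, adjusted p = 0.00026). Its Morula libraries held 11.2, 5.63 and 6.76 and its ExpB libraries 26.1, 33.7, 31.1 and 30.2. TAB2, an adaptor for the kinase of the NF-kappaB pathway encoded by MAP3K7, fell by 1.19 ± 0.23 from 4C (24.6, 17.6 and 21.0) to 16C (10.8, 6.06 and 9.67) (adjusted p = 0.001, limma), and the difference was -0.96 without 16C replicate 2, short of the size for a call. In ExpB TAB2 was at 24.9, 26.04, 21.7 and 19.95, all within the range of its MII and 2C libraries. RAP2C, a small GTPase, was not called: it averaged 81.6 ± 21.5 in 16C, 22.3 ± 6.07 in Morula, 7.13 ± 0.43 in EarlyB and 37.8 ± 8.30 in ExpB, while RAP2A, picked after its values were seen, averaged 66.4 ± 19.8, 41.8 ± 8.75, 17.6 ± 1.39 and 14.5 ± 2.22.

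The remaining 6 rows were given no role. LOC101116001 held 21.0 and 31.0 in MII, 23.7, 27.0, 27.5 and 28.6 in 2C, 25.6, 8.57 and 7.51 in 4C, 11.2, 9.24, 10.9 and 11.6 in 8C and 2.79, 4.06 and 8.60 in 16C. It was at 1.64, 1.23 and 1.92 in Morula, 15.5, 9.74 and 14.2 in EarlyB and 15.7, 16.2, 21.5 and 20.4 in ExpB. Its 4C libraries were split, with replicate 1 at the 2C level and the other two at the 8C level. It fell by 1.04 ± 0.31 from 8C to 16C (SE, limma, adjusted p = 0.023) and fell by 1.19 ± 0.33 from 4C to 16C (adjusted p = 0.017). The first was lost without 8C replicate 4, 16C replicate 1 (-0.75, adjusted p = 0.11) or 16C replicate 2, and the second without 4C replicate 1 (-0.67, adjusted p = 0.15), 16C replicate 1 or 16C replicate 2, and was -0.29 (adjusted p = 0.77) without 4C replicates 1 and 2 and 16C replicate 1 together. Median-ratio scaling also lost the call against 8C on size, at -0.96.

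LOC101122242 fell by 1.63 ± 0.33 from 8C (26.1, 12.8, 13.6 and 15.7) to 16C (1.55, 6.49 and 8.16) (SE, limma, adjusted p = 0.0013). Against 4C the difference was -1.67 ± 0.35 (adjusted p = 0.002, limma). Without 16C replicate 1, the lowest of the 3, these differences were -1.07 and -1.10, and the second was not called without 4C replicates 1 and 2 and 16C replicate 1 together (-0.91, adjusted p = 0.17). Its Morula libraries held 1.36, 2.56 and 3.51 and its ExpB libraries 15.8, 15.1, 15.1 and 18.2. LOC114110475 was the most abundant row of the set in MII and averaged 586 ± 104 there, 145 ± 30.7 in Morula, 121 ± 13.5 in EarlyB and 473 ± 149 in ExpB. TMEM128, a membrane protein, had EarlyB libraries at 25.5, 27.2 and 27.4, below the MII, 2C and ExpB libraries, while its Morula libraries at 98.0, 66.1 and 203 overlapped them.

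TRNAG-GCC_18 is 1 of 61 rows for this glycine tRNA, which have near-identical sequences, so its reads may belong to other copies. The libraries were made from polyadenylated RNA, and which RNA gave the reads of this row was not tested. It held 37.8 and 93.6 in MII, 138, 179.7, 174 and 111 in 2C, 86.0, 41.3 and 30.7 in 16C, 0.51, 0 and 1.63 in Morula, 0, 2.63 and 4.96 in EarlyB and 5.10, 17.7, 8.07 and 14.4 in ExpB. The ExpB libraries straddled the rule's minimum of 10, and ExpB was at 7.51% of the 2C mean, the lowest such share of the 50.

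C2H2orf80 met the rule through its mean but not through its libraries. It held 20.5 and 51.2 in MII, 53.1, 68.3, 81.7 and 52.0 in 2C, 38.7, 68.2 and 56.2 in 4C, 81.5, 61.8, 69.1 and 105 in 8C and 86.9, 125 and 83.9 in 16C. It was still at 108, 85.2 and 79.97 in Morula, then at 14.9, 4.37 and 12.8 in EarlyB and 2.88, 82.2, 2.61 and 51.6 in ExpB. ExpB replicates 2 and 4 lay within the range of the MII to 8C libraries and replicates 1 and 3 below every EarlyB library. The gene left the set with stage medians in place of means and without MII replicate 2, EarlyB replicate 2, ExpB replicate 2 or ExpB replicate 4.

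Other genes of the listed pathways mostly did not meet the rule. Of 33 oocyte and maternal-effect genes 23 were lost and none was in the set, and of 62 mitosis and cell cycle genes 18 were lost and none was in the set. Of 76 cytosolic ribosomal protein genes and 61 oxidative phosphorylation genes none was lost. Among 66 listed actin and adhesion genes 6 were lost and ITGB1 alone was in the set, among 52 of lipid and sterol metabolism 4 and HMGCS1, and among 38 of redox and glutathione metabolism 6 and ALDH7A1. The lysosome and endosome list (49 genes, 3 lost) gave CTSB, the trophectoderm list (32, 1 lost) OCLN, and the primitive endoderm list (20, 1 lost) FN1. Over all rows 50 of 1417 lost genes were in the set.

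Listed genes were called in both directions at 16C. Of 63 tested actin and adhesion genes, TAGLN2 and LGALS1 were higher in 16C than in 4C and ITGA6, ANXA4, CTNNB1 and CDH2 lower. Against 8C the split of the same list was the other way, with TMSB10, CD9, LGALS1 and ARPC3 higher in 16C and CTNNB1 lower. Of 50 tested genes of lipid and sterol metabolism, IDI1 was higher in 16C than in 4C (1.27 ± 0.25, SE, limma, adjusted p = 0.0013). In the same contrast ACSL3, SC5D and HMGCS1 were lower. Of 29 tested trophectoderm genes, the early factor TFAP2C was higher in 16C than in 4C (3.97 ± 0.16, adjusted p = 7e-14, limma) and OCLN lower. Of 15 tested primitive endoderm genes GATA6 was higher in that contrast (1.20 ± 0.20, adjusted p = 0.00015, limma) and none lower. The shares called in these lists against 4C can be read beside 5.35% higher and 2.84% lower of all tested genes. Against 8C the shares of all tested genes were 5.54% higher and 2.01% lower. Summed levels of the trophectoderm list ran from 187 to 248 FPKM in MII to 5888 to 10898 in ExpB, and those of the primitive endoderm list from 47.7 to 48.2 in MII to 337 to 391 in ExpB. The part of cell type composition in the ExpB levels was not tested.

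In the reference gene table of assembly ARS-UI_Ramb_v3.0, 49 of the 50 rows matched a symbol and all 49 were protein coding, the exception being TRNAG-GCC_18. No member was next to another in that table's gene order, nor within 10 genes of one. The genome build behind the deposited values is not given in the sources used here, so positions are not stated, and promoter and protein sequences were not analysed here.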

How the data were processed

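Expression was deposited by the authors as FPKM per gene, 1 table with 26 library columns, each matched to its sample by name. The submitters' processing notes name, without saying what each did, featureCounts 2.0.1, HISAT2 2.1.0, fastp 0.23.4 and SAMtools 1.9, and the genome build is not given in the sources used here. FPKM values of a library sum to between 419071 and 682165, so levels depend on what else is in it. Depth was recovered from the steps between low FPKM values: 99.7% to 100% of values worth up to 20 reads were whole within 0.05 reads, so depth sets how finely low levels are resolved. The recovered reads entered no test.

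The members and gene lists were chosen with earlier results of these data known. Stage means and SDs were computed from FPKM (MII 2, 2C 4, 4C 3, 8C 4, 16C 3, Morula 3, EarlyB 3 and ExpB 4 libraries). Differences among 4C, 8C and 16C were tested with limma 3.58.1 (R 4.3.3; empirical Bayes with an intensity trend, all 8 stages in 1 fit) on log2(FPKM + 1), for the 15766 genes with at least 1 FPKM in at least 2 libraries. P-values were Benjamini-Hochberg adjusted over those genes, and the procedure was tested on simulated data. MII, 2C, Morula, EarlyB and ExpB chose the members and were not tested.

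Named genes were the 12 with the deepest gap, the 6 highest in ExpB, the 6 highest in MII, up to 4 called per contrast and direction by smallest adjusted p, up to 4 members of each list and the 3 nearest each side of the threshold, 28 in all. Replicate numbers did not pair libraries: same-numbered deviations correlated between -0.15 and 0.19. Alternatives were other pseudocounts, filters, scalings, thresholds, a replicate block, a fit of only the 2 stages compared, and leaving out each library.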

Additional observations from a re-analysis of the deposited data

Results flagged for a closer look

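Values of single libraries that stood apart from the other 3 of their stage were found in 6 of 150 groups of 4 libraries checked, by the gap to the nearest library over the whole range (Dixon's 95% critical value). Chance flags about 1 in 20 groups, or 7.5 here. In 8C replicate 1 SLC20A1 was lowest at 60.6 FPKM (others 74.2 to 76.0) and SUCLG2 was lowest at 59.2 (others 76.2 to 79.0). In 8C replicate 4 HADH was highest at 83.2 (others 57.7 to 60.9). In 2C replicate 1 BCKDHB was highest at 16.6 (others 10.5 to 11.5), and in 2C replicate 3 MOSPD2 was highest at 56.4 (others 46.3 to 47.5). In ExpB replicate 2 MORF4L2 was highest at 283 (others 249 to 253).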

How the results depend on the processing

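The number of genes that met the rule followed its thresholds and the scale: 139 with a gap of at least 2-fold and 27 with at least 4-fold, 79 with stage means of at least 5 and 31 with at least 20, 9 with both Morula and EarlyB below the threshold, 102 on the TPM scale, 116 after quantile normalization and 106 with median-ratio scaling, against 50. Members lower in 16C than in 8C numbered 14 on the TPM scale and 4 with only the 2 stages fitted, against 9, and 7 to 13 without 1 library. Members lower in 16C than in 4C numbered 3 with only the 2 stages fitted, against 13, and 11 to 13 without 1 library. The median 16C level was 69.8% of 2C without 16C replicate 3 (56.2% to 69.8% without 1 library), against 61.0%. No member's direction reversed where it was called. With a replicate block 0 members were called in 8C against 4C, 11 lower in 16C than in 8C and 13 lower than in 4C. Leaving out 4C replicates 1 and 2 and 16C replicate 1 together was chosen after seeing the data and gave 0, 13 and 9.

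Over all tested genes, counts moved by more than 1.5 times in some settings. In 8C against 4C, 91 were higher (159 with a pseudocount of 0.1, 0 with only the 2 stages fitted) and 52 lower (0). In 16C against 8C, 874 were higher (251 with only the 2 stages fitted) and 317 lower (768 on the TPM scale, 741 with a pseudocount of 0.1, 65 with the 2 stages). In 16C against 4C, 843 were higher (125 with the 2 stages) and 447 lower (802, 705 and 37 in the same settings). Without 1 library the 8C against 4C counts ran from 1 to 163 higher and 5 to 109 lower. The cause was not tested.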
